A study of Mus musculus with 71 samples.

Results

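Midbrain dopamine neuron identity factors were represented here by 10 genes, chosen by name from the 37681 genes listed in each of 6 deposited tables. They comprised 8 transcription factors (En1, En2, Foxa1, Foxa2, Lmx1a, Lmx1b, Pitx3 and Otx2) and 2 genes that mature dopamine neurons carry, Aldh1a1 and Ret. All 10 were listed in every table.

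Dopamine neurons of the ventral midbrain arise from floor plate progenitors, which are patterned by forkhead, LIM-homeodomain and orthodenticle factors. Several of these factors remain on in the adult neurons, where they are known to maintain the genes for dopamine synthesis and transport and to support survival. The neurons themselves sit in the ventral tegmental area and substantia nigra and send axons, but no cell bodies, to the nucleus accumbens and prefrontal cortex.

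The libraries were RNA-seq of micro-punched tissue from wild type C57BL/6 mice (C57BL/6J in the study's methods) trained to self-administer either cocaine or saline, followed by 1 day or 28 days of abstinence. Nucleus accumbens (NAc), ventral tegmental area (VTA) and prefrontal cortex (PFC) were taken, which gave 12 groups of 6 libraries, apart from saline VTA at 28 days with 5, and 71 libraries in all. All mice shared the strain, genotype and self-administration procedure, and saline mice were the only control used here. The study used adult mice of both sexes, and the sex behind each library was not given. A micro-punch holds every cell type within its reach, so fewer dopamine neurons in a punch and less RNA per dopamine neuron cannot be told apart in any value below. Whether each library came from a separate animal was not given in the labels, and p-values therefore measure the spread between these libraries.

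Between 20971967 and 49700932 reads were assigned to genes per library. VTA punches differed in what else they held. Slc17a7, a marker of cortical excitatory neurons, spanned 1.09 to 74.8 RPKM (reads scaled to gene length and library size) across the VTA libraries, and Tph2, which makes serotonin, spanned 0.312 to 158 RPKM. The mean log2 level of 4 dopamine genes (Th, Ddc, Slc6a3 and Slc18a2) was lowest in saline library 4 and cocaine library 3 at 1 day, and in saline library 4 and cocaine library 2 at 28 days. The defining dopamine markers were present in every VTA library, with Slc6a3, the dopamine transporter, at 89.8 RPKM or more. One PFC library, saline library 4 at 28 days, carried 45.9 RPKM of Drd2, a dopamine receptor abundant in striatum, against at most 2.93 RPKM in the other PFC libraries.

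Promoter sequences were available in RefSeq (GRCm38.p6) for 8 of the 10 genes, in 14 windows of 300 bases from 250 bases before to 50 after a start site. En2 and Ret had none. Letters of 4 motifs were searched on both strands, none of which contains another: TAATTA, the core of many homeodomain sites; GGATTA, the form preferred by orthodenticle and Pitx factors; TGTTTAC, the forkhead core; and AAAGGTCA, the site of Nr4a monomers. These letters occurred in 5.29%, 7.06%, 3.65% and 1.51% of all 32851 RefSeq promoter windows of that length. Among the 10 genes, matches were found only in windows of Foxa1 and Otx2. The windows below are shown for these genes and for Aldh1a1, the member with the largest difference at 1 day, with matches in capitals. Foxa1 lies at chr12:57546062-57546361 on the minus strand and held the forkhead letters, read from the other strand as GTAAACA, 141 bases before its start site. For Otx2, chr14:48665060-48665359 on the minus strand, 3 copies of TAATTA and 1 of GGATTA stood between 234 and 154 bases before the start site, and a second Otx2 window, chr14:48667595-48667894, held TAATTA once. No match was present for Aldh1a1, at chr19:20601718-20602017 on the plus strand.
Foxa1: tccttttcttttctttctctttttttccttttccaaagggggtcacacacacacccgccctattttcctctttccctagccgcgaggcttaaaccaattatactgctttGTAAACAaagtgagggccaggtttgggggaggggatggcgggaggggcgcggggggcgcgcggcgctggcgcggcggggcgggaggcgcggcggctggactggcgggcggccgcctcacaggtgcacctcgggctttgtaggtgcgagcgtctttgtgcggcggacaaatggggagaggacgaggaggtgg
Otx2: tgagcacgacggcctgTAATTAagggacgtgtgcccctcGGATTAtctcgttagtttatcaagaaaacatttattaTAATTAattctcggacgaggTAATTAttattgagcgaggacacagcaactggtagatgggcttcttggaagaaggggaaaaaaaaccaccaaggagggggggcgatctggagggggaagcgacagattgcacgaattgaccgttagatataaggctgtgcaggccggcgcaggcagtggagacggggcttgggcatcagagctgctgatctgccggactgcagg
Aldh1a1: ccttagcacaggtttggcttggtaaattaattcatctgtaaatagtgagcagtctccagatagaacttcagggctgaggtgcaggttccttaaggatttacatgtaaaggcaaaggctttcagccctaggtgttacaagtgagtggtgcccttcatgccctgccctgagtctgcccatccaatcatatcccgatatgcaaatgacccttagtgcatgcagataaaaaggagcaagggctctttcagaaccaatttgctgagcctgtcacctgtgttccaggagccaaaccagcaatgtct

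The first question was where in the brain these genes were read out at baseline. All 10 genes were higher in VTA than in both other regions in saline mice at 28 days, and every VTA library lay above every NAc and PFC library for each of them, as it did for 23.5% of 17181 genes against NAc and 23.2% against PFC. In edgeR's quasi-likelihood test with Benjamini-Hochberg adjustment, 10 of 10 were called higher in VTA than in NAc, where 62.5% of 17181 genes were called in either direction and 32.6% were called higher in VTA. Against PFC, 10 of 10 were again called higher, with 57.8% of genes called in either direction and 29.8% higher in VTA. The median log2 difference of the 10 was 7.92 against NAc and 7.39 against PFC, whereas the medians over all genes tested were 0.03 and 0.02. Each region was deposited as its own table, so region and table cannot be told apart. Leaving out the PFC library with high Drd2 left all 10 genes called in both comparisons.

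**Figure D1:**
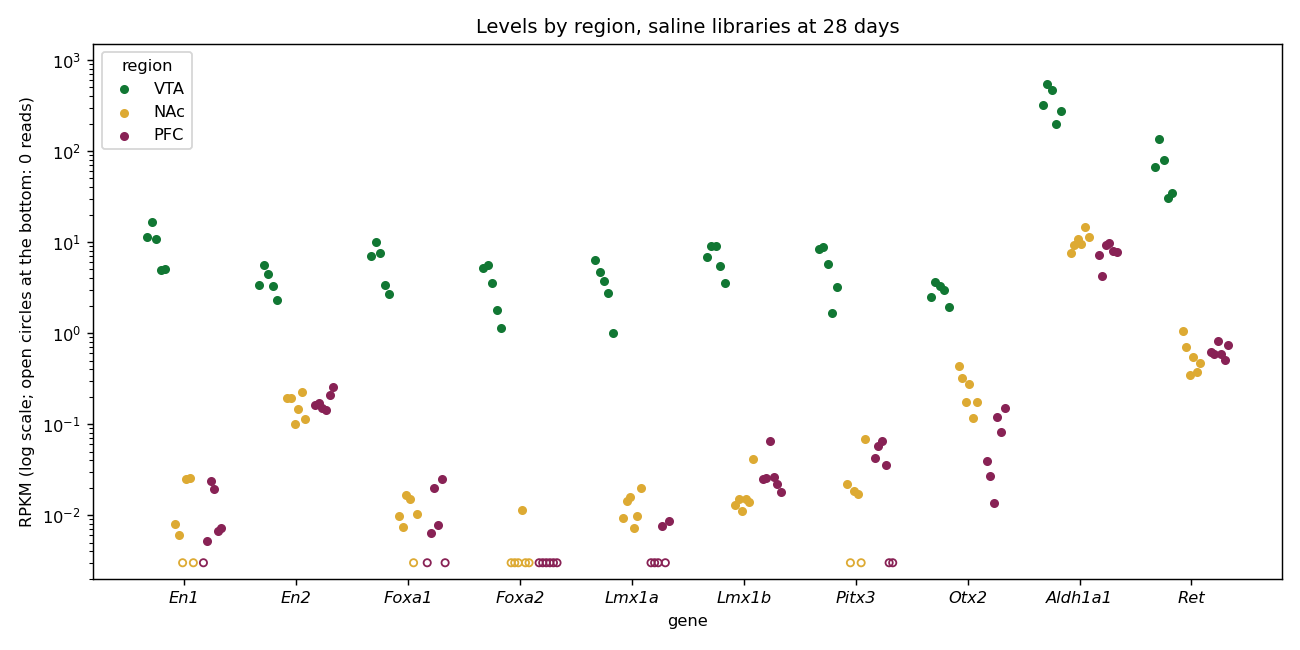
RPKM of the 10 genes (log axis) in every saline library at 28 days, by region, with open circles at the bottom for libraries without reads. VTA libraries lie above all NAc and PFC libraries for every gene, and Aldh1a1, Ret, En2 and Otx2 keep a low level outside VTA.

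Among the patterning factors, Foxa2 had the fewest reads outside VTA in saline libraries at 28 days. This forkhead factor specifies the floor plate and is kept by adult dopamine neurons (ENSMUSG00000037025, mm9 chr2:147868613-147872705). In the 5 saline VTA libraries at 28 days it measured 5.20, 5.61, 3.52, 1.79 and 1.12 RPKM, a mean of 3.45 ± 1.99 RPKM (SD, n = 5). A single read was assigned to it over the 6 NAc libraries, a ratio of 1570 with a 95% counting interval of 282 to 61995. No read fell on it in the 6 PFC libraries, which with a floor of 3 reads over the group makes VTA at least 554-fold higher. Such intervals and floors cover counting error only.

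Foxa1, the paralog that acts beside Foxa2 (ENSMUSG00000035451, mm9 chr12:58641618-58647108), measured 7.03, 9.95, 7.60, 3.35 and 2.67 RPKM in the saline VTA libraries, a mean of 6.12 ± 3.05 RPKM (SD, n = 5). Only 7 reads were assigned to it over the NAc libraries and 7 over the PFC libraries. The log2 difference of Foxa1 was 8.98 ± 0.48 (SE) against NAc (edgeR adjusted p = 5.02e-11) and 9.01 ± 0.48 against PFC (edgeR adjusted p = 4.75e-11). Both forkhead genes were thus near the limit of detection outside VTA.

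The LIM-homeodomain pair behaved likewise. Lmx1a, which starts the dopamine programme in floor plate progenitors (ENSMUSG00000026686, mm9 chr1:169619370-169778872), gave 6.32, 4.66, 3.70, 2.77 and 1.00 RPKM in saline VTA at 28 days, with 9 reads over the NAc libraries and 2 over the PFC libraries. The log2 difference against NAc was 7.97 ± 0.48 (SE), and against PFC the ratio was 1399 with a 95% counting interval of 387 to 11553. Lmx1b, which is also a regulator of serotonin neurons (ENSMUSG00000038765, mm9 chr2:33416485-33496031), gave 6.93, 9.13, 9.00, 5.39 and 3.57 RPKM. It had 18 reads over the NAc libraries and 32 over the PFC libraries, and log2 differences of 8.43 ± 0.34 and 7.66 ± 0.32 (SE). Saline library 5 was the lowest of the 5 for both genes.

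The engrailed genes keep dopamine neurons alive in the adult and also mark neighbouring hindbrain and cerebellar territory. En1 (ENSMUSG00000058665, mm9 chr1:122498995-122505873) measured 11.4, 16.5, 10.7, 4.88 and 5.09 RPKM in saline VTA at 28 days, against 9 reads over the NAc libraries and 9 over the PFC libraries. That gave a log2 difference of 9.61 ± 0.49 (SE) against NAc and 9.64 ± 0.49 against PFC. En2 (ENSMUSG00000039095, mm9 chr5:28492236-28500152) measured 3.34, 5.59, 4.49, 3.29 and 2.32 RPKM in VTA. Unlike En1, En2 was counted in every NAc and PFC library, at 0.163 ± 0.0505 RPKM in NAc (SD, n = 6) and 0.182 ± 0.0417 RPKM in PFC (SD, n = 6). Its log2 difference was 4.44 ± 0.25 (SE) against NAc and 4.24 ± 0.24 against PFC.

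Otx2, the orthodenticle factor that sets the midbrain-hindbrain border and marks a subset of adult VTA dopamine neurons (ENSMUSG00000021848, mm9 chr14:49277354-49287319), had the smallest difference from NAc. It measured 2.49, 3.61, 3.30, 2.97 and 1.91 RPKM in saline VTA at 28 days, and in NAc it ranged from 0.116 to 0.436 RPKM with a median of 0.225. PFC libraries ranged from 0.0137 to 0.150 RPKM with a median of 0.0606. The log2 difference of VTA was 3.40 ± 0.34 (SE) from NAc and 5.14 ± 0.39 from PFC. Otx2 was the 1 gene of the 10 that was called between NAc and PFC, where 40.7% of all genes were called. Its log2 difference there was 1.74 ± 0.41 (SE; edgeR adjusted p = 0.0024), and 1.98 without the PFC library with high Drd2.

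Pitx3, the homeodomain factor that drives tyrosine hydroxylase in dopamine neurons (ENSMUSG00000025229, mm9 chr19:46210175-46222865), measured 8.37, 8.91, 5.68, 1.67 and 3.21 RPKM in saline VTA at 28 days. Over the NAc libraries it had 6 reads and over the PFC libraries 11, and its log2 difference was 7.87 ± 0.61 (SE) against NAc and 7.12 ± 0.56 against PFC. The gene overlaps Elovl3 by 10 bases on the other strand, and since strand was not stated, reads from that stretch cannot be assigned. Elovl3 itself had at most 22 reads in any VTA library.

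Aldh1a1 and Ret were the abundant members. Aldh1a1, a retinaldehyde dehydrogenase carried by a ventral set of dopamine neurons (ENSMUSG00000053279, mm9 chr19:20676451-20717952), measured 320, 546, 468, 199 and 278 RPKM in saline VTA at 28 days. Outside VTA it was still readily counted, at 10.6 ± 2.4 RPKM in NAc (SD, n = 6) and 7.67 ± 1.95 RPKM in PFC (SD, n = 6). Log2 differences were 4.99 ± 0.28 (SE) and 5.42 ± 0.29. Its near-identical paralog Aldh1a7 had 137 to 1100 reads in VTA libraries at 1 day, against 10982 to 45682 for Aldh1a1, and reads shared by the pair are uncertain.

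Ret, the receptor tyrosine kinase for GDNF family ligands (ENSMUSG00000030110, mm9 chr6:118101766-118147762), measured 66.6, 136, 78.9, 30.6 and 34.9 RPKM in saline VTA at 28 days. NAc libraries averaged 0.585 ± 0.266 RPKM (SD, n = 6) and PFC libraries 0.642 ± 0.115 RPKM (SD, n = 6), log2 differences of 6.80 ± 0.40 (SE) and 6.62 ± 0.39. Ret was not called between NAc and PFC (log2 difference -0.18 ± 0.34, edgeR adjusted p = 0.72).

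Per length, Aldh1a1 was the highest of the 10 in VTA, with a mean of 362 RPKM in saline mice at 28 days, and Ret followed at 69.3 RPKM. Neither overlapped its neighbour in this order. En1 at 9.72, Lmx1b at 6.80, Foxa1 at 6.12, Pitx3 at 5.57, En2 at 3.80, Lmx1a at 3.69, Foxa2 at 3.45 and Otx2 at 2.86 RPKM formed a lower tier. Within that tier each gene overlapped the next, and only genes far apart in the order, such as En1 and Otx2, did not.

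At 1 day Aldh1a1, Ret and En1 again led the order in saline VTA libraries. Foxa1 at 6.22 RPKM stood above Lmx1b at 4.84 RPKM, and Otx2 at 3.29 RPKM stood above En2, Lmx1a and Foxa2. Pitx3 was the lowest of the 10 at 1 day, with a mean of 0.428 ± 0.153 RPKM (SD, n = 6), and its highest VTA library of that time measured 0.640 RPKM. No read was assigned to Pitx3 in any of the 24 NAc and PFC libraries at 1 day. The ratio of its saline VTA mean at 28 days to that at 1 day was 10.7 (on RPKM + 0.1), a ratio that 26 of 15163 genes (0.171%) exceeded. For the other members this ratio lay between 0.616 for Aldh1a1 and 1.47 for Foxa2, and the median over all genes was 1.01. The tables for each time point were made separately, so the time point and the table cannot be told apart and no test was made.

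The next question was whether cocaine self-administration changed these genes after 1 day of abstinence. None of the 9 members that passed the filter on low values in VTA was called at an adjusted p of 0.05 (limma on log2(RPKM + 0.1)), at which 0.0665% of 15042 genes were called. Pitx3 did not pass that filter. Of the 9, 7 had a negative and 2 a positive difference, with a median of -0.43 on the log2 scale, against 0.03 over all genes tested. An unadjusted p under 0.05 was reached by 2 of the 9, Aldh1a1 and En1, and by 15.7% of all genes. For 5 members, Aldh1a1, En1, Ret, Foxa1 and Lmx1b, all 6 cocaine libraries lay below the saline median, as they did for 5.58% of the genes tested.

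**Figure D2:**
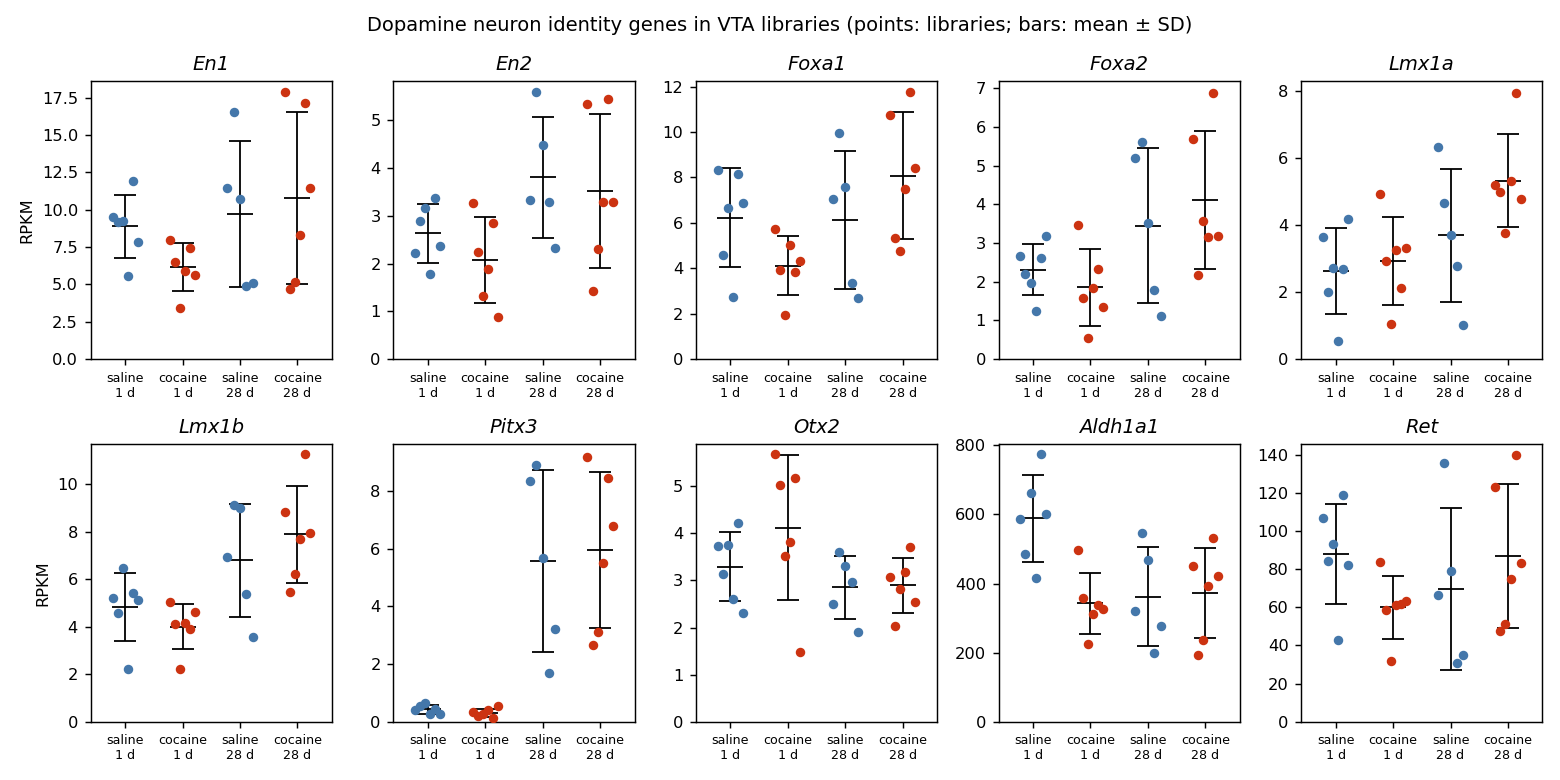
RPKM of the 10 genes in each VTA library, by treatment and time point, with group means. Aldh1a1 separates the treatments most at 1 day, where 5 of 6 cocaine libraries lie under all saline libraries, and at 28 days the groups overlap for every gene.

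Aldh1a1 had the largest difference. The 6 saline libraries measured 587, 486, 663, 417, 776 and 601 RPKM and the 6 cocaine libraries 497, 359, 225, 312, 336 and 326 RPKM. Cocaine libraries 2 to 6 lay below every saline library, and cocaine library 1 lay within the saline range. The means were 588 ± 127 RPKM for saline (SD, n = 6) and 343 ± 88.5 RPKM for cocaine (SD, n = 6), a log2 difference of -0.79 ± 0.18 (SE; limma adjusted p = 0.084). On reads recovered from the RPKM values the adjusted p was 0.070 by edgeR and 0.00095 by DESeq2, which called 702 genes in this comparison, and over the 10 alternatives other than leaving out libraries it ranged up to 0.38. Leaving out single libraries moved the difference between -0.91 and -0.68 and the adjusted p between 0.051 and 0.20.

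Ret, the other abundant member, ranged from 42.6 to 119 RPKM in saline libraries with a median of 88.4, and from 31.6 to 83.5 RPKM in cocaine libraries with a median of 61.4. The ranges overlapped, with saline libraries 4 and 6 among the cocaine values. Its log2 difference was -0.54 ± 0.25 (SE; limma adjusted p = 0.32).

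For En1, one of the engrailed factors, saline libraries ranged from 5.54 to 11.9 RPKM with a median of 9.20, and cocaine libraries from 3.39 to 7.94 RPKM with a median of 6.19. Saline library 4 was the lowest of its group and cocaine library 3 the lowest of all. The log2 difference was -0.54 ± 0.21 (SE; limma adjusted p = 0.25). En2 differed by -0.42 ± 0.27 (SE; limma adjusted p = 0.49).

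Both forkhead genes had negative differences that did not pass the test. Foxa1 ranged from 2.72 to 8.33 RPKM with a median of 6.75 in saline and from 1.94 to 5.72 RPKM with a median of 4.12 in cocaine libraries, a log2 difference of -0.56 ± 0.29 (SE; limma adjusted p = 0.37). Foxa2 differed by -0.43 ± 0.34 (SE; limma adjusted p = 0.59), and its highest and lowest values of the time point were both in cocaine libraries, 1 and 3.

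Lmx1b differed by -0.24 ± 0.24 (SE; limma adjusted p = 0.69). Lmx1a and Otx2 were the pair with positive differences. Lmx1a spanned 0.543 to 4.17 RPKM in saline and 1.03 to 4.94 RPKM in cocaine libraries, a log2 difference of 0.23 ± 0.44 (SE; limma adjusted p = 0.86) that turned to -0.15 without saline library 4, its lowest. Otx2 spanned 2.31 to 4.22 RPKM in saline and 1.48 to 5.69 RPKM in cocaine libraries, with 3 cocaine libraries above all saline libraries and 1 below. Its log2 difference was 0.23 ± 0.28 (SE; limma adjusted p = 0.75). Pitx3 ranged from 0.261 to 0.640 RPKM in saline and from 0.137 to 0.534 RPKM in cocaine libraries, on 5 to 23 reads a library.

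**Figure D3:**
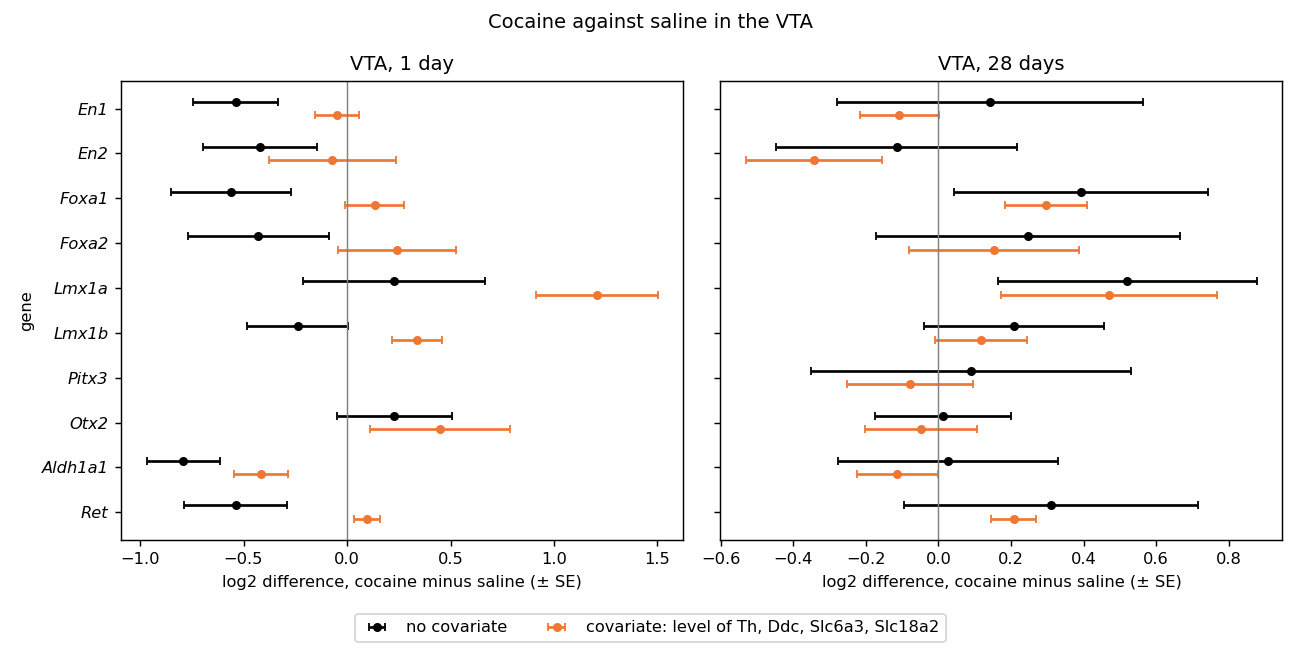
Log2 difference of cocaine from saline in VTA for each gene tested at 1 day (limma, log2(RPKM + 0.1)) and 28 days (edgeR), with standard errors. A second series has the mean level of Th, Ddc, Slc6a3 and Slc18a2 as a covariate. At 1 day these genes themselves had negative differences, so the covariate overlaps with treatment. Without the covariate, most 1-day differences lie below 0, down to -0.79 for Aldh1a1. The 28-day differences without it lie between -0.12 and 0.52, for En2 and Lmx1a.

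Genes for dopamine synthesis (Th, Ddc, Gch1), transport (Slc6a3, Slc18a2) and the receptor Drd2 were followed as a list, and all 6 had negative differences at 1 day, with a median of -0.59 on the log2 scale and none called by limma. Th, the rate-limiting enzyme of dopamine synthesis, differed by -0.60 ± 0.24 (SE; limma adjusted p = 0.26), and Slc6a3 by -0.84 ± 0.25 (SE; limma adjusted p = 0.17, and 0.011 by DESeq2 on recovered reads). With the mean level of Th, Ddc, Slc6a3 and Slc18a2 in each library as a covariate, the Aldh1a1 difference was -0.41 ± 0.13 (SE; limma adjusted p = 0.17). Under the same covariate the differences of En1, Ret and Foxa1 were -0.05, 0.10 and 0.13, and that of Lmx1a was 1.21 ± 0.29 (SE; limma adjusted p = 0.12). The genes of this covariate themselves had negative differences with cocaine, for Ddc -0.58 and for Slc18a2 -0.49 beside Th and Slc6a3 above. This covariate therefore overlapped with treatment, and its adjusted values cannot be read as differences at equal dopamine neuron content.

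Several lists of markers of other cell types had differences of 1 sign between treatments in VTA at 1 day, with none called. All 5 meningeal fibroblast markers had positive differences (median 1.44), and their summed level ranged from 13.0 to 69.9 RPKM in saline and from 37.0 to 237 RPKM in cocaine libraries. All 5 hypothalamic and subthalamic markers were likewise positive (median 1.44), from 1.98 to 10.8 RPKM in saline and from 2.46 to 602 RPKM in cocaine libraries. All 4 serotonin neuron markers were positive (median 0.93), at 1.92 to 136 RPKM in saline and 18.4 to 236 RPKM in cocaine libraries. Group medians went the other way for Tph2 (44.8 RPKM in saline, 35.5 in cocaine) and Slc6a4 (24.1 and 19.6). Saline libraries 1 and 4 held only 1.10 and 1.33 RPKM of Tph2. All 5 microglia markers were negative (median -0.45), from 94.7 to 143 RPKM in saline and from 60.8 to 102 RPKM in cocaine libraries. None of these markers was at 0 in all libraries of a group. With the cortical marker level as a covariate the Aldh1a1 difference was -0.67, those of En1 and Ret were -0.24 and -0.32, that of En2 turned from -0.42 to 0.06, and that of Otx2 was 0.77. The Foxa2 difference under that covariate was -0.0023. Slc17a7, of the cortical markers, had a median of 2.33 RPKM in saline and 16.8 RPKM in cocaine libraries, so that covariate overlapped with treatment. With the serotonin marker level the Aldh1a1 difference was -0.83, and the part of the meningeal, hypothalamic and microglial markers was not tested.

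After 28 days of abstinence no member was called between treatments. None of the 10 passed edgeR's test in VTA, where 0.0% of 16937 genes were called, 1942 genes had an unadjusted p under 0.05 and DESeq2 called 73. No member had an unadjusted p under 0.05. Of the 10 differences 9 were positive and 1, that of En2, negative, with a median of 0.17 on the log2 scale against -0.03 over all genes. With the cortical marker level as a covariate all 10 differences were negative, from -0.95 for En1 to -0.13 for Lmx1a, and none passed the test. The cortical marker Slc17a7 itself had a median of 23.6 RPKM in saline and 1.65 RPKM in cocaine libraries. This covariate therefore overlapped with treatment, and the 2 cannot be fully told apart.

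Lmx1a had the largest difference at this time. Its saline libraries are given above, and its cocaine libraries ranged from 3.76 to 7.93 RPKM with a median of 5.09. The ranges of the 2 groups overlapped. The log2 difference was 0.52 ± 0.36 (SE; edgeR adjusted p = 0.53), with an approximate 95% interval from -0.18 to 1.22. It was 0.11 with the serotonin and -0.13 with the cortical marker level as a covariate. With the mean level of Th, Ddc, Slc6a3 and Slc18a2 as a covariate the Lmx1a difference was 0.47 ± 0.30 (SE).

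Foxa1 in cocaine libraries ranged from 4.77 to 11.8 RPKM with a median of 7.94, and its log2 difference was 0.39 ± 0.35 (SE; edgeR adjusted p = 0.62). Cocaine libraries of Ret ranged from 47.6 to 140 RPKM with a median of 79.0, a log2 difference of 0.31 ± 0.41 (SE; edgeR adjusted p = 0.74). Both ranges overlapped the saline range.

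For Aldh1a1, which had differed most at 1 day, the cocaine libraries measured 451, 194, 238, 393, 532 and 422 RPKM at 28 days. These values spread over the whole saline range, and the means were 362 ± 142 RPKM for saline (SD, n = 5) and 372 ± 130 RPKM for cocaine (SD, n = 6). Its log2 difference was 0.03 ± 0.30 (SE; edgeR adjusted p = 0.97), with an approximate 95% interval from -0.57 to 0.62. En1, Foxa2, Lmx1b, Pitx3 and Otx2 differed by 0.01 to 0.25, and En2 by -0.12 ± 0.33 (SE; edgeR adjusted p = 0.89).

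Serotonin neuron markers had negative differences in VTA at 28 days for all 4 genes (median -1.93, none called), with a summed level of 6.98 to 161 RPKM in saline and 1.14 to 88.9 RPKM in cocaine libraries. All 5 meningeal markers had negative differences too (median -1.10, none called), at 13.5 to 205 RPKM in saline and 11.4 to 83.0 RPKM in cocaine libraries, and their part in the members' values was not tested. With the cortical marker level as a covariate, the Pitx3, Ret and Aldh1a1 differences were -0.92, -0.65 and -0.58.

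Whether the effect of cocaine differed between the time points was tested in a single limma fit over all 23 VTA libraries. None of the 10 members was called for the interaction, and 0.0% of 15149 genes were, with 2017 genes at an unadjusted p under 0.05. Foxa1 and Aldh1a1 were the 2 members with an unadjusted p under 0.05. The effect at 28 days minus that at 1 day was 1.05 ± 0.48 (SE) for Foxa1 (limma adjusted p = 0.35) and 0.83 ± 0.37 (SE) for Aldh1a1 (limma adjusted p = 0.34). A difference between the time points was therefore not established for any of the 10.

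The spread between VTA libraries of one group was wide for all 10 genes. Its SD on the log2 scale lay between 0.45 for Otx2 and 0.79 for Lmx1a, whereas the median over 14660 genes was 0.19. For each member at least 90.3% of genes had a smaller spread. Saline library 2 and cocaine libraries 1 and 5 were high for most members at 28 days, and saline libraries 4 and 5 were low.

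**Figure D4:**
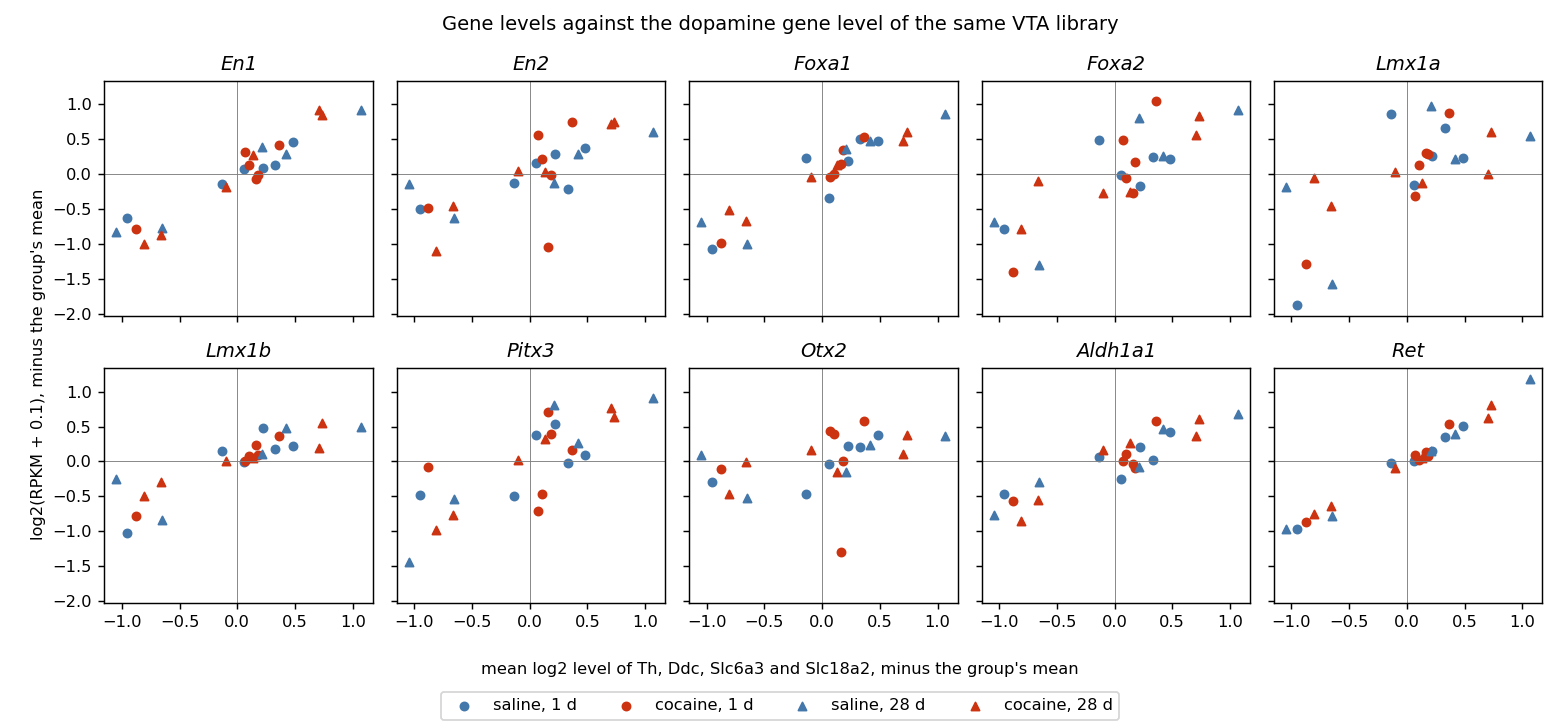
Deviation of each gene from its group mean (log2(RPKM + 0.1)) against the deviation of the mean level of Th, Ddc, Slc6a3 and Slc18a2, in 23 VTA libraries. Ret follows that level almost exactly (r = 0.99) and Otx2 least (r = 0.41).

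These deviations followed the dopamine gene level of the library, defined as the mean log2 level of Th, Ddc, Slc6a3 and Slc18a2. Relations of the 10 members with this level and with 5 marker levels of other cell types, 60 in all, were computed over the 23 libraries after centring on the group mean, and both values of a pair come from 1 library and share its RNA and depth. Ret followed it most closely, with Pearson r = 0.99 and Spearman rho = 0.98, and En1 (0.96 and 0.91), Foxa1 (0.94 and 0.93), Aldh1a1 (0.91 and 0.87) and Lmx1b (0.88 and 0.90) came next. For Ret, En1, Foxa1 and Aldh1a1 the permutation p of r was 1e-05, the smallest that 100000 permutations can give (adjusted over the 60 to 0.00015). Foxa2 (0.82 and 0.78), Pitx3 (0.79 and 0.77), En2 (0.72 and 0.74) and Lmx1a (0.69 and 0.68) were looser, with adjusted permutation p of r from 0.001 to 0.00653. Otx2 was the 1 member with r under 0.5 (r = 0.41, permutation p = 0.040, adjusted 0.134; rho = 0.57, permutation p = 0.0053, adjusted 0.0245). With the ependymal marker level Otx2 had r = -0.75 (permutation p = 0.0139, adjusted 0.0596; rho = -0.49, permutation p = 0.0345, adjusted 0.122), a relation that rested on 2 libraries, since r was -0.32 without the 2 farthest. For En1 the relation with the cortical marker level was likewise inverse (r = -0.63, permutation p = 0.00197, adjusted 0.0118, and rho = -0.70, permutation p = 0.00062, adjusted 0.00413). Without the 2 farthest libraries its r was -0.67. Foxa2 (r = -0.59, permutation p = 0.00718, adjusted 0.0392) and En2 (r = -0.55, permutation p = 0.00866, adjusted 0.0433) were inverse to it too. Ret was so by rank (rho = -0.61, permutation p = 0.00512, adjusted 0.0245), while its r of -0.53 had an adjusted permutation p of 0.0648.

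Without the 2 libraries farthest from the median dopamine level, r ranged from 0.45 for Otx2 to 0.99 for Ret. Within each time point the order changed for some genes. Pitx3 had r = 0.40 at 1 day, where it rested on few reads, and 0.95 at 28 days. For En2 the values were 0.50 and 0.86, for Otx2 0.31 and 0.65, and for Lmx1a 0.86 and 0.61. Between members, 34 of 45 pairs had r over 0.5, from 0.06 for Pitx3 with Otx2 to 0.95 for En1 with Ret.

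Genes whose VTA pattern was most like that of a member, by Pearson r over the same 23 centred libraries among about 14659 genes, are given as a description. Ret was most like Chrna6 and Chrnb3 (r = 0.99 for each), nicotinic receptor subunits of dopamine neurons, and Slc10a4 (r = 0.98). En1 was most like Slc10a4 (r = 0.97), Ddc and Chrnb3, and Foxa1 like Ntsr1, a neurotensin receptor (r = 0.96), Chrna6 and Chrnb3. Aldh1a1 was nearest to Lmo3 (r = 0.96), Syt17 and Chrna6, and Lmx1b to C130021I20Rik (r = 0.97), Ntn1 and Nr4a2. Foxa2 was nearest to Cpne4 (r = 0.94), Nr4a2 and Ttc6, Lmx1a to Car12 (r = 0.91), Neurl1b and C130021I20Rik, and Pitx3 to Fgf20 (r = 0.90), Wnt10b and BC017643. The nearest genes of En2 were Cnpy1 (r = 0.93), Ajap1 and Pbx3, and those of Otx2 were Fam196b (r = 0.90), Cdh8 and 4930426D05Rik.

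In NAc and PFC few members could be tested for an effect of cocaine. At 1 day En2, Otx2, Aldh1a1 and Ret passed the filter in NAc, none was called by edgeR and 0.0126% of 15878 genes were. Their log2 differences ran from -0.48 for En2 to 0.20 for Ret, with an adjusted p of 1.00 for each. In PFC at 1 day Aldh1a1 and Ret were tested, none was called by limma and 0.00693% of 14427 genes were. Ret there ranged from 0.544 to 0.897 RPKM in saline and from 0.450 to 0.616 RPKM in cocaine libraries, a log2 difference of -0.35 ± 0.15 (SE; limma adjusted p = 0.91).

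At 28 days the same 4 genes were tested in NAc, none was called by edgeR and 0.0% of 16295 genes were, with 1102 at an unadjusted p under 0.05. Aldh1a1 in NAc ranged from 7.55 to 14.7 RPKM with a median of 10.2 in saline and from 5.55 to 9.97 RPKM with a median of 8.40 in cocaine libraries. Its log2 difference was -0.37 ± 0.16 (SE; edgeR adjusted p = 0.70). Ret differed by 0.49 ± 0.23 (SE; edgeR adjusted p = 0.75) and Otx2 by 0.65 ± 0.33 (SE; edgeR adjusted p = 0.75). In PFC En2, Aldh1a1 and Ret were tested, with none called, 0.0% of 16340 genes called and 925 at an unadjusted p under 0.05. En2 ranged from 0.141 to 0.253 RPKM in saline and from 0.0807 to 0.180 RPKM in cocaine PFC libraries, a log2 difference of -0.60 ± 0.22 (SE; edgeR adjusted p = 0.84).

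Partner genes of the members were followed as lists. Of the ligands, coreceptors and adaptors of Ret, 9 were tested between saline VTA and NAc at 28 days, with 1 called higher in VTA and 4 lower, where 62.5% of all genes were called. Among them Gdnf, the founding Ret ligand, was lower in VTA by a log2 difference of -3.34 ± 0.51 (SE), and Dok4 and Gfra4 were lower by -1.41 and -1.03. Against PFC, 2 of the 9 were higher in VTA and 5 lower, where 57.8% of all genes were called, and Gfra1, the coreceptor for Gdnf, was among the higher with a log2 difference of 1.30 ± 0.17 (SE). For cocaine in VTA, none of this list was called at 1 day (3 positive and 3 negative of 6) or at 28 days (6 positive and 3 negative of 9).

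Retinoic acid is made by Aldh1a1 from retinaldehyde, and 14 other genes of its synthesis, breakdown and receptors were followed. Between VTA and NAc, 4 of the 14 were called higher and 6 lower in VTA, beside 62.5% of all genes called, with Aldh1a7 at 4.42 ± 0.40 (SE) and Rarb, a retinoic acid receptor, at -3.97 ± 0.54 on the log2 scale. Against PFC, 6 were higher and 3 lower in VTA, beside 57.8% of all genes called, and Cyp26b1, which breaks retinoic acid down, differed by 3.40 ± 0.52 (SE). With cocaine none was called in VTA, and 10 of 12 differences were positive at 1 day (median 0.23), against 4 of 14 at 28 days (median -0.13). Medians over all genes tested were 0.03 at 1 day and -0.03 at 28 days. Whether this list shifted as a set was not tested.

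Of 6 other transcription factors of dopamine neurons, 2 were called higher in VTA than in NAc and 1 lower, beside 62.5% of all genes called. Ebf3 differed by 5.56 ± 0.30 and Nr4a2, the nuclear receptor that works with Pitx3, by 2.18 ± 0.51 (SE), while Lmo3 was higher in NAc (log2 difference -1.84 ± 0.22). With cocaine, 5 of the 6 had negative differences in VTA at 1 day (median -0.28) and 6 of 6 positive ones at 28 days (median 0.18), with none called. Over all genes tested the medians were 0.03 and -0.03, and a shift of these factors as a set was not tested.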

How the data were processed

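RNA-seq was measured in 71 libraries of 3 regions, 2 time points and 2 treatments. The authors aligned reads to mm9 with Ensembl annotation using STAR 2.4.1d. Of the 6 tables, 4 held read counts per gene as the authors deposited them and 2 (VTA and PFC at 1 day) held RPKM values that the authors computed with gene length. Libraries were taken from columns whose names matched the labels. Another 30 columns of per-library values, with Food or F in their names, matched no label and were not used. Columns with the authors' own fold changes and p-values were not used either. How reads were counted, and whether by strand, was not given in the sources used here.

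Counts were tested with edgeR 4.0.16 (quasi-likelihood, TMM, filterByExpr with a minimum count of 10 and total of 15) and RPKM with limma 3.58.1 (eBayes with trend) on log2(RPKM + 0.1) with genes kept at a mean RPKM of 0.5 or more, in R 4.3.3. Treatments were compared inside each table, and saline libraries of 28 days were compared between regions in a single fit. The VTA interaction used limma on both time points, with 28-day counts turned into RPKM by the same lengths. P-values were adjusted by Benjamini-Hochberg over all genes tested and called at 0.05. Whole reads were recovered from 100% of the RPKM rows with reads (within 0.001 reads) and tested as an alternative with edgeR and DESeq2 1.42.0. Other alternatives were other scalings, pseudocounts and filters, marker levels as covariates, a replicate block and leaving out each library. Scripts were tested on simulated data. Python 3.11.15 made summaries and figures.

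The members and lists were chosen with earlier results of these data known. All 10 members are named. From other lists, the genes called in a comparison are eligible (at most the 3 with the smallest adjusted p), the 4 dopamine genes always, and for each member the 3 genes with the highest r. Genes of other marker lists were named as well where punches differed. Of 175 pairs of libraries of 1 group none was identical, and the closest pair differed by more than counting noise. Deviations of same-numbered cocaine and saline libraries at 1 day correlated over 0.1 for 4 of 6 numbers in VTA, 3 of 6 in NAc and 0 of 6 in PFC. Not every pair passed 0.1, so the numbers were not used to pair samples.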

Additional observations from a re-analysis of the deposited data

Results flagged for a closer look

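Of 55 groups of libraries with values of the 10 genes, 2 held a library far from the rest of its group, where chance flags about 1 in 20 groups. Lmx1a in the cocaine VTA libraries at 28 days was highest in library 5, at 7.93 RPKM, with the next at 5.32 and the median at 5.09 RPKM. That gap was 0.626 of the range of the group. Library 5 was also among the highest of its group for the dopamine gene level. Ret in the cocaine NAc libraries at 1 day was highest in library 5, at 1.77 RPKM, with the next at 0.690 and the median at 0.587 RPKM. That gap was 0.900 of the range, and without this library the log2 difference of Ret from saline turned from 0.20 to -0.17.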

How the results depend on the processing

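The number of members called was recomputed under 204 alternatives, and 201 left it within 1.5 times its value. That value was 0 in each cocaine comparison and in the interaction, and 10 of 10 in both VTA region comparisons. Many alternatives only left out 1 library, so this agreement is a weak check. In VTA at 1 day an adjusted p under 0.25 called 2 members, Aldh1a1 and En1, and DESeq2 on recovered reads called 1, Aldh1a1. Between NAc and PFC, saline libraries of 1 day in place of 28 days called 2 members, Aldh1a1 and Otx2. The share of all genes called in that 1-day fit is not given here. In the 28-day fit it was 40.7%, so the count is not read as particular to the members. Leaving out 1 library at a time gave 0 members called in each cocaine comparison, 10 in both VTA comparisons and 1 between NAc and PFC. With the replicate block 0 members were called in VTA at 1 day, where it called 60 genes in all against 10 without it. In VTA 2 of 6 numbers, 5 and 6, correlated best with their own number, a hint from the data and not from the design. Over all genes, VTA at 1 day gave 55 calls by edgeR and 702 by DESeq2 on recovered reads, 28 by limma without trend, 0, 15 and 5 with the cortical, dopamine and serotonin levels as covariates, and 1309 at an adjusted p under 0.25. At 28 days in VTA DESeq2 called 73 genes and edgeR 0. The serotonin covariate and limma without trend were chosen after seeing the data. The cause of these changes was not tested.

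Precision was limited by the spread between punches, which in VTA exceeded that of most genes for all 10 members, by at most 23 reads a library for Pitx3 in VTA at 1 day, and by the few reads of most members in NAc and PFC, where 6 to 8 of the 10 could not be tested for an effect of cocaine.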
